A study of Homo sapiens with 19 samples.

Results

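The genes described here are 9 genes of MHC class I antigen presentation, followed through 3 histone marks in MOLM-13 cells. They are a list by name and role, out of 20020 protein-coding genes. The rule uses no measured value, but the genes were chosen with earlier results of these data known. Each gene was given the peaks lying within 10 kb, and within 2 kb, of its transcription start site (TSS) in GENCODE release 44 on hg38, and the base pairs under those peaks were counted in every list. Of the 9 genes, 8 had a peak of at least 1 mark within 10 kb, and HLA-F had none. MOLM-13 is an established human acute myeloid leukaemia line. Its cells were exposed for 24 h to 0.1 µM Corin or to the solvent DMSO, and the label of the DMSO libraries carries the same dose. Corin blocks the demethylase LSD1 together with the class I histone deacetylases held in the CoREST complex. CUT&RUN, in which an antibody directs a nuclease to cut out the DNA around a mark, was done for H3K27ac, H3K4me2 and H3K4me3, with 2 libraries per mark and treatment, so that 12 of 19 libraries are used here. All 6 groups are the same cells, and the labels name no difference in genotype between them. The labels do not say whether the libraries of a group came from separate cultures, so p-values measure the spread between these libraries only, which may be technical.

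MHC class I molecules show fragments of a cell's own proteins to cytotoxic T cells and natural killer cells. The proteasome cuts the fragments, the TAP transporter carries them into the endoplasmic reticulum, and a heavy chain binds them together with B2M before it moves to the cell surface. NLRC5 is the transactivator that is recruited to the promoters of many of these genes, and interferon raises most of the set. H3K4me3 marks active or poised promoters, H3K4me2 spreads over promoters and enhancers and is a substrate of LSD1, and H3K27ac marks active promoters and enhancers and is removed by class I deacetylases. Loss of surface MHC class I is a known way for leukaemia cells to escape immune control.

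The H3K27ac lists were longer with Corin, 34424 and 30029 peaks, than with DMSO, 17599 and 19995 peaks. The H3K4me2 lists held 41152 and 40042 peaks against 30896 and 32299, and the 4 H3K4me3 lists held 11104 to 11883. Read depths per list are unknown. Covered base pairs moved with list length over the whole genome, so shares over all genes are given beside the counts. H3K4me3 lay over the TSS of 5 to 7 of 9 myeloid leukaemia marker genes per library, among them SPI1, CEBPA and ITGB2 in all 4, and MPO and CSF1R in none. It lay over 0 of 5 lymphoid, 0 of 3 erythroid and 0 of 3 epithelial marker genes in any library.

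RefSeq promoter sequences (GRCh38.p14) were at hand for 7 of the 9 genes, all but HLA-E and NLRC5. Of these 4 are shown, each the 250 bases before the TSS, 5′ to 3′ on the strand of the gene: HLA-C and HLA-F because they are heavy-chain promoters with and without peaks, B2M because it is the shared light chain, and TAP1 because its TSS lies 488 bp from that of PSMB9. They lie at chr6:31272093-31272342 on the minus strand (HLA-C), chr6:29723184-29723433 on the plus strand (HLA-F), chr15:44711267-44711516 on the plus strand (B2M) and chr6:32853705-32853954 on the minus strand (TAP1). Capitals mark matches on either strand to CCAAT, the box bound by NF-Y, to the core of the interferon-stimulated response element, ISRE (GAAA, any 2 bases, GAAA), to TGACG, the half-site of the cyclic AMP response element, and to GGGGATTCC, a kappa B site.
HLA-C: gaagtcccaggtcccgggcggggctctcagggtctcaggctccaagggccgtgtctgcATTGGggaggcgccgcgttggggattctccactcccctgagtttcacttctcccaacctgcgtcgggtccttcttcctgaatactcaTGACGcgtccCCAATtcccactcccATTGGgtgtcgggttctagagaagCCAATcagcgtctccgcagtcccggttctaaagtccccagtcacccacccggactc
HLA-F: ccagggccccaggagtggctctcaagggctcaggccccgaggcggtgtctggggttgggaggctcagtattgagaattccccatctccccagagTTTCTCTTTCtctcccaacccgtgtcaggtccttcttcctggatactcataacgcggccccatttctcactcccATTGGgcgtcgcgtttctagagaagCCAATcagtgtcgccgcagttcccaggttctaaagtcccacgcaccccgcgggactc
B2M: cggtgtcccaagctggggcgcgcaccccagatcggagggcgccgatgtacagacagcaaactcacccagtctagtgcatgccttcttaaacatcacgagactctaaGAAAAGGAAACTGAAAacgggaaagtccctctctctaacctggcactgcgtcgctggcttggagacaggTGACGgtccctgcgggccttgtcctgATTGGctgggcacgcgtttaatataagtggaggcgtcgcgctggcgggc
TAP1: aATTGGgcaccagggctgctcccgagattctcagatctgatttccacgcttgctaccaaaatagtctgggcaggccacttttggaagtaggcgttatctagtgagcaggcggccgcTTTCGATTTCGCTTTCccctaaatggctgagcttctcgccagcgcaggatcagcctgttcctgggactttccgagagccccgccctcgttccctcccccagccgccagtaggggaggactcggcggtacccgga

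CCAAT was found in 6 of the 7 promoters, against 32.0% of 35116 RefSeq promoters. The ISRE core was found in 4 of the 7, those of HLA-F, B2M, TAP1 and TAP2, against 3.02% of promoters. In B2M and in TAP1 the match occurs as a pair of overlapping copies. TGACG was found in 5 of the 7, against 21.2%. GGGGATTCC was found in 1, HLA-B, against 0.253%. TTCNNNGAA, the site of activated STAT dimers, was found in 0 of the 7, against 6.57%. GAGGAA, a core bound by the myeloid factor PU.1, and AGGTCA, a nuclear receptor half-site, were found in 0 of the 7, against 23.6% and 12.1%. These are matches of letters in a window and not measured binding. HLA-F, which had no peak of any mark, holds CCAAT and the ISRE core.

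The marks were spread unevenly over the 9 genes in untreated and treated cells alike. H3K4me3 lay over the TSS base of the canonical transcript in 4 of 4 libraries at HLA-E, B2M, TAP1, TAP2, PSMB9 and NLRC5, in 3 at HLA-C, in 1 at HLA-B and in 0 at HLA-F. Over all genes, 37.0% to 41.1% of TSSs were under H3K4me3 in a library. By mean H3K4me3 coverage with DMSO within 2 kb of the canonical TSS, B2M stood first with 2712.5 bp, followed by the shared TAP1 and PSMB9 promoter with 1883 bp, TAP2 with 1250 bp, NLRC5 with 1088.5 bp, HLA-E with 982.5 bp, HLA-C with 879 bp and HLA-B with 399 bp. The DMSO libraries of neighbours in this order did not overlap, although the lower HLA-E library and the higher HLA-C library were nearly equal. H3K27ac lay over the TSS base in 2 libraries at HLA-E, 2 at NLRC5, 1 at B2M, 1 at TAP2 and 0 at the other 5 genes. Over all genes, 12.3% and 17.9% of TSSs were under H3K27ac with DMSO and 25.8% and 24.8% with Corin. Within 10 kb, HLA-B, HLA-C and HLA-F had 0 bp of H3K27ac in all 4 libraries. Of the genes with H3K4me3 on the TSS base, H3K27ac lay there too at 2 of 7 and 2 of 6 with Corin and at 1 of 7 and 1 of 8 with DMSO. Over all TSSs under H3K4me3 the shares were 59.0% and 56.8% with Corin and 29.8% and 40.3% with DMSO.

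**Figure D1:**
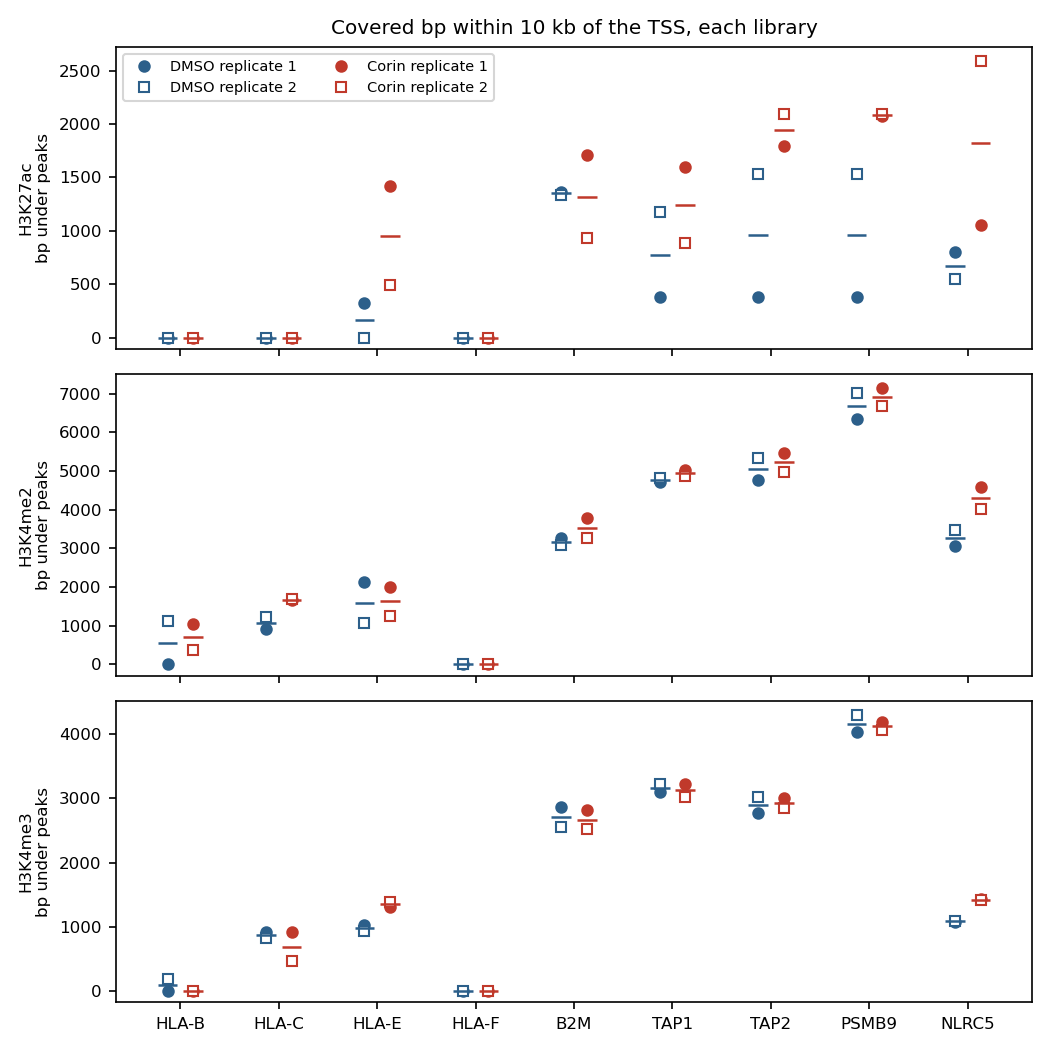
Base pairs under peaks within 10 kb of the gene-record TSS of each gene, in 1 panel per mark, with Corin libraries and DMSO libraries as separate points. HLA-F lies at 0 bp in each panel, HLA-B and HLA-C lie at 0 bp in H3K27ac, and the Corin points of NLRC5 lie above its DMSO points in each of the 3 marks.

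In H3K27ac within 10 kb, both Corin libraries had more covered bp than both DMSO libraries at 4 of the 6 covered genes, HLA-E, NLRC5, PSMB9 and TAP2, and fewer at 0. Among all 10542 covered genes 54.6% had this pattern and 0.655% the opposite one, so the pattern was the usual one among covered genes. The median difference was 468.5 bp over all 9 genes, with the 3 uncovered ones at 0, and 892 bp over the 6 tested, beside 528 bp over 9048 genes tested. In H3K4me2 the pattern held at 4 of 8 covered genes, NLRC5, HLA-C, B2M and TAP1, and the opposite at 0. Among all 14074 covered genes the shares were 39.5% and 3.83%. The median difference was 184 bp over all 9 genes and 211 bp over the 8 tested, beside 246.5 bp over 13546 genes tested. In H3K4me3 it held at 2 of 8 covered genes, HLA-E and NLRC5, against 25.7% of 11189 covered genes, with 0 genes and 8.28% in the opposite direction. The median was -37 bp both over all 9 genes and over the 7 tested, beside 63.5 bp over 10731 genes tested. Whether the genes' median lay above or below that of all genes turned with the setting in H3K27ac and H3K4me2. At the matched number of peaks it was 92.5 bp over the genes tested beside 333.5 bp in H3K27ac, and 163 beside 142.5 bp in H3K4me2.

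With limma on covered bp, 0 of the 9 genes passed an adjusted p of 0.05 in any mark. Over all genes 0.0% of 9048 passed in H3K27ac, 0.162% of 13546 (22 genes) in H3K4me2 and 0.0% of 10731 in H3K4me3. At an unadjusted p below 0.05 there were 2 genes in H3K27ac (NLRC5 and PSMB9), 2 in H3K4me2 (NLRC5 and HLA-C) and 2 in H3K4me3 (HLA-E and NLRC5), with 26.7%, 14.3% and 6.89% of all tested genes below it. With the library number as a block, limma called 2 of the genes in H3K27ac, HLA-E and NLRC5, and 0 in the other marks. That fit called 17.6% of 9048 genes in H3K27ac, 4.69% of 13546 in H3K4me2 and 0.0652% of 10731 in H3K4me3. An exact permutation test of 2 against 2 libraries cannot go below p = 0.33 for a single gene.

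**Figure D2:**
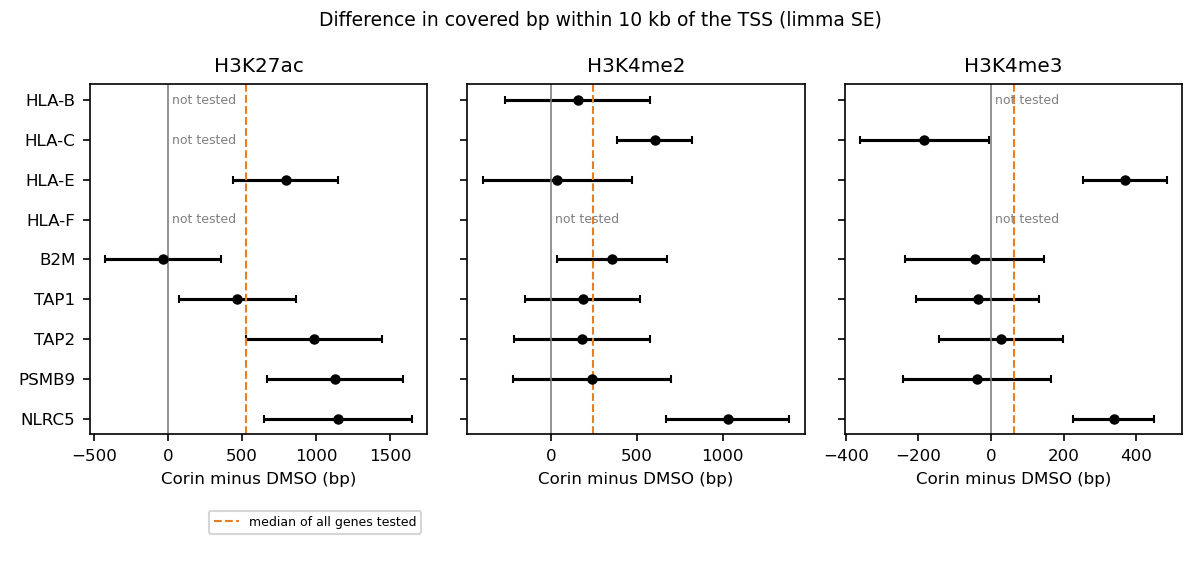
Difference in covered bp within 10 kb, Corin mean minus DMSO mean, for each gene and mark, with bars of 1 SE from limma. The dashed line is the median of all genes tested in that mark, and genes below the coverage minimum are written as not tested. NLRC5 lies to the right of the dashed line in each panel.

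NLRC5, the class I transactivator, was higher with Corin in all 3 marks. Among the 6 genes covered in every mark it was the 1 with this pattern, against 8.84% of 9751 such genes in the genome. The gene (ENSG00000140853.17) lies on the plus strand at chr16:56989485-57083531. H3K27ac covered 1055 and 2593 bp in the Corin libraries and 803 and 545 bp in the DMSO libraries within 10 kb. The lower Corin value lay close to the higher DMSO value, and the Corin libraries differed by more than the DMSO libraries did. The difference was 1150 bp (SE 499.2, 2.706-fold, limma adjusted p = 0.182, and 0.0346 with the library number as a block). At the matched number of peaks the values were 0 and 2031 bp against 803 and 545 bp, and the groups overlapped (341.5 bp, limma adjusted p = 0.87). Over the whole gene body H3K27ac covered 9458 and 9950 bp with Corin and 3365 and 4204 bp with DMSO, with no overlap (5919.5 bp, limma adjusted p = 0.0987). H3K4me2 covered 4582 and 4012 bp against 3068 and 3465 bp, without overlap of the groups. The difference was 1030.5 bp (1.315-fold, limma adjusted p = 0.28, and 0.229 with the block). H3K4me3 covered 1434 and 1418 bp against 1079 and 1098 bp, with both groups tight. The difference was 337.5 bp (SE 110.8, 1.31-fold, limma adjusted p = 0.641).

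The 3 marks were not all higher at the same place of the NLRC5 locus. Within 2 kb, H3K27ac covered 211 and 1183 bp with Corin and 803 and 545 bp with DMSO, so the groups overlapped and differed by 23 bp. Within 2 kb 0 of the 6 covered genes had more H3K27ac in both Corin libraries, against 47.7% of 9045 covered genes, and 0 had less (0.674%), while 3 of 8 had more H3K4me2 and 0 less (27.8% and 7.0% of 12606) and 2 of 7 more H3K4me3 (23.5% of 10199). The H3K4me2 domain on the NLRC5 promoter was 3590 and 3555 bp wide with Corin and 3068 and 3099 bp wide with DMSO. Its width was among the widest 2.32% to 4.47% of peaks in each list. This domain was wider at its upstream end with Corin, as the map of peaks around NLRC5 shows. The H3K4me3 peak inside it was wider mainly at its downstream end, and it also began slightly further upstream with Corin.

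Within the 10 kb window, H3K27ac outside the NLRC5 promoter came mainly from 1 upstream region. The second Corin library alone had further peaks, of 338 bp less than 2 kb before the TSS and of 224 bp in an intron. The upstream region and an intronic region at the edge of the window each had a peak in both Corin libraries and in neither DMSO library. Regions of this kind, gained with Corin, were 3 of the 14 H3K27ac regions within 10 kb of the 9 genes, against 11.5% of 41587 regions genome-wide, and 0 of the 14 were lost, against 0.18%. The first, chr16:56985536-56986545, is intergenic and upstream of the TSS, with 844 and 990 bp in the Corin libraries. H3K4me2 was under the same region in 3 of 4 libraries, 463 and 457 bp with Corin and 0 and 366 bp with DMSO, and H3K4me3 in none. The second, chr16:56999290-57000909, lies in an intron of NLRC5, with 872 and 1620 bp, most of them past the window, and no peak of the other marks. It reaches to within 10 kb of the TSS through the peak of the second Corin library, while the peak of the first begins 10476 bp downstream. The scores of these 4 peaks were 86, 117, 95 and 131, where each list begins at 50. With each H3K27ac list cut to its 17599 best-scoring peaks, 0 regions near the genes were gained, and 1193 were gained genome-wide. In H3K4me2 0 of 15 regions near the genes were gained and 0 lost, against 9.64% and 0.158% of 42429 regions. In H3K4me3 0 of 8 were gained and 0 lost, against 1.49% and 0.289% of 12090.

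The upstream region is shown because it is the place near NLRC5 where H3K27ac was gained next to H3K4me2. It is given as the 300 bases at the centre of the shared part of both Corin peaks, chr16:56985818-56986117 on the plus strand of hg38, and the gained region past the end of HLA-E is given as its 245 shared bases, chr6:30496503-30496747 on the plus strand. Capitals mark matches to any of the 7 motifs named above.
NLRC5 upstream region: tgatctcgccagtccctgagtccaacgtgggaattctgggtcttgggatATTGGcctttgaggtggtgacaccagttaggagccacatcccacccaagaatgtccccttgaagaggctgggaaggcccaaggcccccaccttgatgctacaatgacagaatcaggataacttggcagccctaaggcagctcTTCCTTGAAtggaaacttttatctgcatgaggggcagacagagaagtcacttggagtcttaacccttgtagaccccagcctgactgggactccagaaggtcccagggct
HLA-E downstream region: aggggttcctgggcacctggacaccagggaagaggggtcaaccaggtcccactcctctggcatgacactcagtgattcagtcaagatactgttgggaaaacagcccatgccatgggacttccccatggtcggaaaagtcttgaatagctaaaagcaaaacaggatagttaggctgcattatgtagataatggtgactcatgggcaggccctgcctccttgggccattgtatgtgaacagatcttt

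The NLRC5 stretch holds 1 CCAAT, read on the minus strand, and 1 TTCNNNGAA, and the HLA-E stretch holds none of the 7 motifs. Over the 300 central bases of all 41587 H3K27ac regions, 28.9% held CCAAT, 8.07% held TTCNNNGAA and 3.87% held the ISRE core. The remaining shares were 13.4% for TGACG, 0.219% for GGGGATTCC, 29.6% for GAGGAA and 20.6% for AGGTCA. Both kinds of match in the 300 bases near NLRC5 thus occur in other such regions too, CCAAT more often than TTCNNNGAA.

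**Figure D3:**
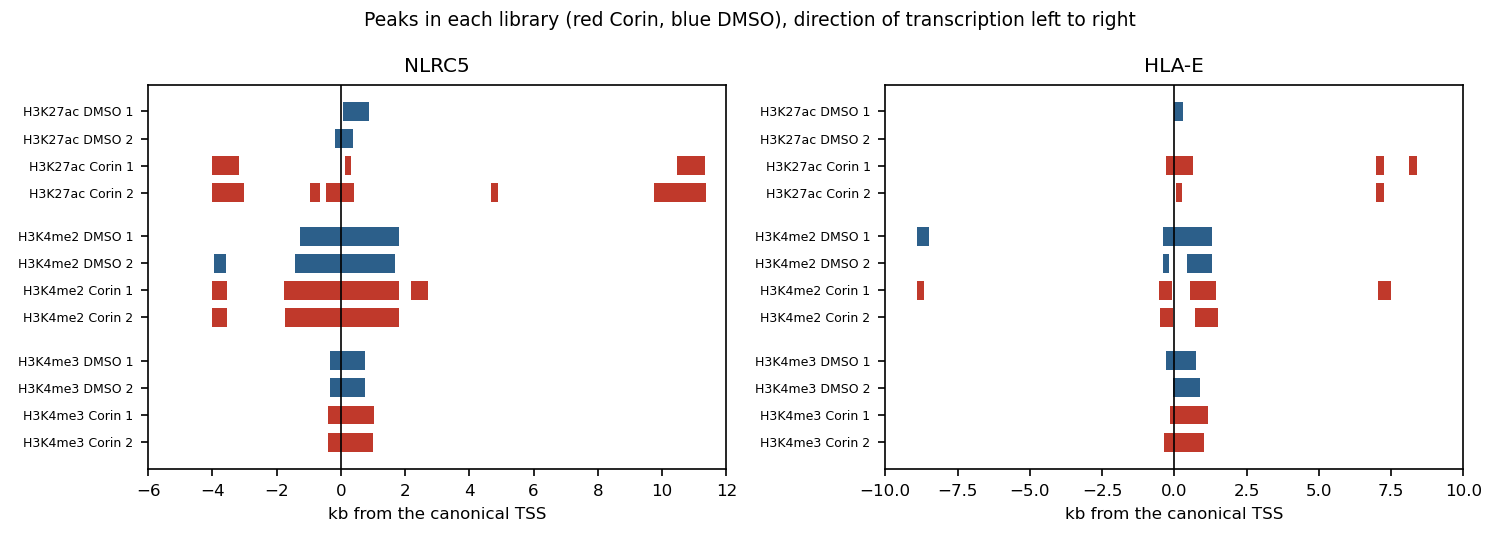
Peaks of each library around NLRC5 and HLA-E, drawn by distance in kb from the canonical TSS, with transcription running left to right, Corin in red and DMSO in blue. Within the range drawn, the H3K27ac peaks away from the NLRC5 promoter, upstream and in the gene, are in the Corin libraries, and so are the H3K27ac peaks downstream of HLA-E.

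Among the heavy chains, HLA-E, the non-classical chain that presents leader peptides to natural killer cell receptors, was the 1 with H3K27ac. It (ENSG00000204592.9) lies on the plus strand at chr6:30489509-30494194. Its H3K27ac covered 1419 and 493 bp with Corin and 321 and 0 bp with DMSO within 10 kb. The groups did not overlap, but the first Corin library held most of the coverage. The difference was 795.5 bp (SE 356.6, limma adjusted p = 0.191, and 0.048 with the library number as a block). On the promoter itself, within 2 kb, the values were 919 and 223 bp against 321 and 0 bp and overlapped. The promoter peaks had low scores, 86 and 84 with Corin and 55 with DMSO, and no H3K27ac peak of HLA-E remained in either Corin list at the matched number of peaks.

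H3K4me3 at HLA-E covered 1317 and 1385 bp with Corin and 1029 and 936 bp with DMSO, with no overlap. The difference was 368.5 bp (SE 115.2, 1.375-fold, limma adjusted p = 0.62, and 0.488 with the block). These peaks scored 834, 747, 686 and 624, well above the lists' minimum. H3K4me2 covered 2010 and 1259 bp with Corin and 2138 and 1063 bp with DMSO, so in each group the first library was the higher, and the difference was 34 bp. In 3 of the 4 libraries H3K4me2 left the TSS uncovered and lay on both sides of it. With Corin the H3K4me3 peak of the same library number spanned this gap. In the second DMSO library the H3K4me3 peak began inside the gap and crossed the TSS. In the first DMSO library 1 H3K4me2 peak of 1708 bp ran across the TSS.

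HLA-C and HLA-B, classical heavy chains that bind peptides for cytotoxic T cells, had the methyl marks and no H3K27ac. HLA-C (ENSG00000204525.18) lies on the minus strand at chr6:31268749-31272130. Its H3K4me2 covered 1666 and 1680 bp with Corin and 925 and 1215 bp with DMSO, and these values were the same within 2 kb. The Corin libraries lay close together and above both DMSO libraries. The difference was 603 bp (1.564-fold, limma adjusted p = 0.299, and 0.665 within 2 kb). With Corin the peak at the 5′ end covered the TSS base, and with DMSO it ended 381 and 348 bp before it. H3K4me3 at HLA-C covered 920 and 471 bp with Corin and 927 and 831 bp with DMSO. The second Corin library, whose peak began 354 bp past the TSS, was the low one, and the groups overlapped.

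HLA-B (ENSG00000234745.14) lies on the minus strand at chr6:31353872-31367067. Its gene record begins 9888 bp before the TSS of the canonical transcript, so the values are given for both starts. Around the record's start H3K4me2 covered 1055 and 370 bp with Corin and 0 and 1118 bp with DMSO, and around the canonical TSS 1732 and 1372 bp against 401 and 1619 bp. The first DMSO library was the lowest by either start, and the groups overlapped (difference 542 bp around the canonical TSS, limma adjusted p = 0.661). H3K4me3 around the canonical TSS covered 349 and 482 bp with Corin and 286 and 512 bp with DMSO, a difference of 16.5 bp. Around the record's start it covered 0, 0, 0 and 192 bp, below the minimum for a test. Each library had a H3K4me3 peak starting 409 to 471 bp past the canonical TSS, and the second DMSO library had another over it. HLA-F (ENSG00000204642.14), a non-classical heavy chain at chr6:29722775-29738528 on the plus strand, had 0 bp of every mark within 10 kb. HLA genes differ between people, and the effect of the alleles of MOLM-13 on mapping to the reference was not tested.

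B2M, the light chain shared by every class I heavy chain, was the 1 covered gene whose mean H3K27ac coverage was not higher with Corin. It (ENSG00000166710.23) lies on the plus strand at chr15:44711358-44718851. H3K27ac covered 1706 and 931 bp with Corin and 1366 and 1338 bp with DMSO, so the Corin libraries lay on either side of the DMSO libraries. The difference was -33.5 bp (limma adjusted p = 0.957). At the matched number of peaks it was 1002 and 682 bp with Corin against the same DMSO values, and both Corin libraries were then lower, by 510 bp in the mean. That pattern, lower in both, held for 1 of the 6 genes and for 3.5% of 9554 covered genes at matched numbers, while higher in both held for 0 of the 6 and for 35.3%.

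H3K4me3 at B2M covered 2820 and 2514 bp with Corin and 2866 and 2559 bp with DMSO, the first library of each group being the higher. The peaks were in the widest 5.14% to 7.94% of each list. H3K4me2 covered 3775 and 3277 bp with Corin and 3265 and 3077 bp with DMSO, a difference of 355 bp (limma adjusted p = 0.713), which was 106 bp without the first Corin library and 604 bp without the second. Within 2 kb it was 2862 and 2309 bp against 2701 and 2335 bp, and the groups overlapped. As at HLA-E, H3K4me2 flanked the TSS and left it uncovered in 3 of 4 libraries, the first DMSO library again being the exception. Over all genes, 43.3% to 65.9% of TSSs under H3K4me3 were also under H3K4me2 in the library of the same treatment and number, and among the 9 genes it was 5 of 7 and 4 of 6 with Corin and 5 of 7 and 5 of 8 with DMSO. PATL2, which overlaps the promoter of B2M, shares these peaks.

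**Figure D4:**
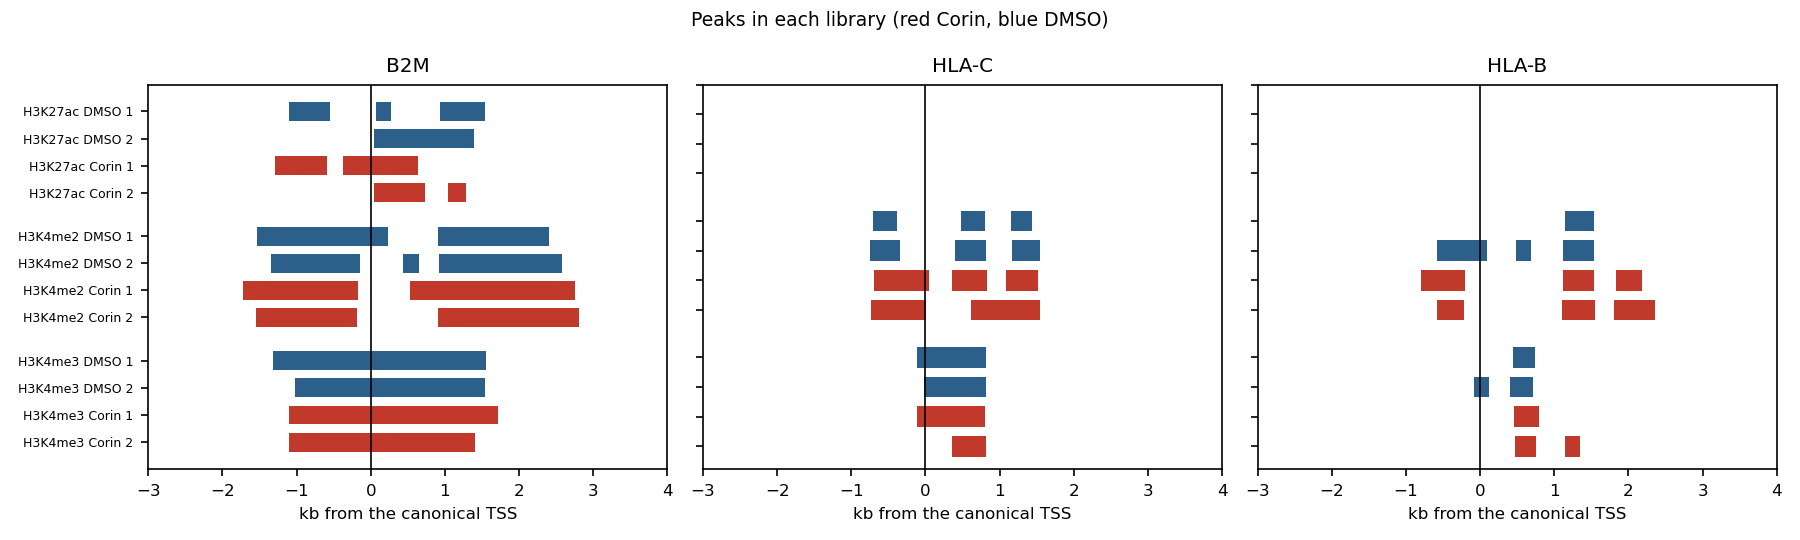
Peaks of each library around B2M, HLA-C and HLA-B, by distance in kb from the canonical TSS, with transcription running left to right, Corin in red and DMSO in blue. H3K4me3 crosses the B2M start in each library, H3K4me2 leaves it uncovered in 3 of 4 libraries, and the HLA-C and HLA-B panels hold no H3K27ac peak.

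TAP1, TAP2 and PSMB9 lie next to one another in the class II region of chromosome 6 and share peaks. TAP1 (ENSG00000168394.13, minus strand, chr6:32845209-32853816) and TAP2 (ENSG00000204267.19, minus strand, chr6:32821833-32838739) encode the subunits of the peptide transporter, and PSMB9 (ENSG00000240065.8, plus strand, chr6:32844136-32859851) encodes a catalytic subunit of the immunoproteasome. The gene record of PSMB9 begins 10056 bp before its canonical TSS and 89 bp from the TSS of PSMB8, another immunoproteasome subunit. The canonical TSSs of TAP1 and PSMB9 lie 488 bp apart and are transcribed away from each other, and those of TAP1 and TAP2 lie 14965 bp apart. Their 10 kb windows overlap, so their values are not independent measurements.

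The divergent TAP1 and PSMB9 promoter was under 1 domain of H3K4me2 in each library, 2763 and 2734 bp with Corin and 2600 and 2665 bp with DMSO. By score it stood in the top 0.275% to 2.95% of each list. The Corin values lay above the DMSO values by 116 bp in the mean. H3K4me3 there covered 1883 and 1642 bp with Corin and 1864 and 1902 bp with DMSO, and the groups overlapped. H3K27ac was called there in the first Corin library alone, over 285 bp. In the other 3 libraries this promoter had high H3K4me2 scores and no H3K27ac peak.

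H3K27ac in the windows of these genes came from elsewhere in the cluster. Around the PSMB8 promoter, chr6:32843484-32845131, it covered 1592 and 1219 bp with Corin and 379 and 1291 bp with DMSO, and the first DMSO library was the low one. In TAP2, chr6:32837614-32838319, it covered 199 and 668 bp with Corin and 0 and 244 bp with DMSO. A separate peak of 212 bp over the TAP2 TSS was in the second Corin library alone. Summed within 10 kb, TAP2 had 1791 and 2099 bp against 379 and 1535 bp (difference 988 bp, limma adjusted p = 0.203). PSMB9 by its gene record had 2076 and 2099 bp against the same 379 and 1535 bp (1130.5 bp, limma adjusted p = 0.167). Neither pair of groups overlapped, and both fell short of the threshold with the library number as a block (adjusted p of 0.0975 and 0.0644 in limma). At the matched number of peaks both genes had 0 and 2099 bp against 379 and 1535 bp, which overlapped (92.5 bp, limma adjusted p = 0.982). Around the canonical TSS of PSMB9 the values were 1225 and 511 bp against 379 and 796 bp and overlapped. TAP1 had 1601 and 887 bp against 379 and 1172 bp, which overlapped as well.

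The methyl marks over this cluster differed little between treatments. H3K4me2 within 10 kb covered 5037 and 4870 bp with Corin and 4714 and 4825 bp with DMSO at TAP1, without overlap (difference 184 bp, limma adjusted p = 0.88). It covered 5467 and 4989 bp against 4771 and 5327 bp at TAP2, which overlapped. At PSMB9 it covered 7157 and 6672 bp against 6341 and 7013 bp around the gene record, and 4661 and 4494 bp against 4338 and 4449 bp around the canonical TSS. H3K4me3 covered 3218 and 3023 bp against 3090 and 3225 bp at TAP1, 3008 and 2841 bp against 2772 and 3022 bp at TAP2 and 4182 and 4060 bp against 4021 and 4297 bp at PSMB9, and the groups overlapped at each. Within 2 kb of TAP2, H3K4me3 covered 1205 and 1115 bp with Corin and 1226 and 1274 bp with DMSO. This was the 1 of the 7 genes covered within 2 kb that was lower in both Corin libraries, by 90 bp (limma adjusted p = 0.957), against 9.35% of 10199 genes. A second gene model overlaps TAP2 at its start, and peaks do not tell the genes apart.

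**Figure D5:**
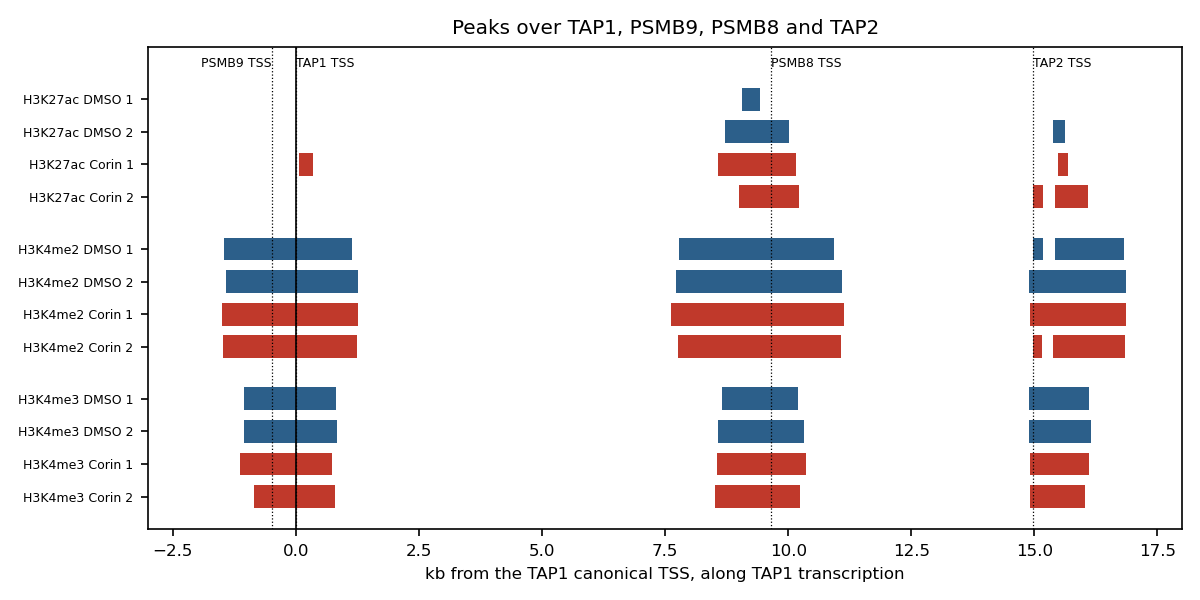
Peaks of each library over the TAP2, PSMB8, PSMB9 and TAP1 cluster, drawn by distance in kb from the TAP1 TSS, with TSS positions as vertical lines, Corin in red and DMSO in blue. The methyl marks sit on each of the promoters, and H3K27ac sits mainly on that of PSMB8.

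The wider class I pathway was read from a list of 24 further genes, of the peptide-loading complex, the proteasome activators and immunoproteasome, the RFX and NF-Y factors that act at class I promoters, interferon signalling and stress ligands, of which 22 were covered in each mark. In H3K27ac 16 of the 22 were higher in both Corin libraries and 0 lower, where 54.6% and 0.655% of all covered genes were. Of the 20 tested with limma, 0 passed the adjusted threshold (0.0% of all genes tested), 6 had an unadjusted p below 0.05 (26.7%), and 1 passed with the block (17.6%). Their median difference was 648 bp, beside 528 bp for all genes tested. CALR, the chaperone calreticulin, had 5429 and 5685 bp with Corin and 2384 and 3981 bp with DMSO (limma adjusted p = 0.119). NFYA, a subunit of the CCAAT-binding factor NF-Y, had 3780 and 2771 bp against 1349 and 1945 bp (limma adjusted p = 0.123). Both had no overlap between the groups and stayed short of the threshold.

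In H3K4me2, 12 of the 22 pathway genes were higher in both Corin libraries and 1 lower, where 39.5% and 3.83% of all covered genes were. The median difference was 419 bp, beside 246.5 bp for all genes tested. Limma called 0 of the 22 (0.162% of all genes tested), 1 had an unadjusted p below 0.05 (14.3%), and 0 passed with the block (4.69%). PDIA3, the disulphide isomerase of the loading complex, had 3595 and 2669 bp with Corin and 1758 and 1915 bp with DMSO (limma adjusted p = 0.198). CANX, the chaperone calnexin, had 2600 and 2672 bp against 1456 and 2237 bp (limma adjusted p = 0.358). PSME2, a proteasome activator subunit, had 5666 and 5627 bp against 5668 and 5743 bp, and was the 1 lower gene by 59 bp in the mean. In H3K4me3, 3 of the 22 were higher and 2 lower, where 25.7% and 8.28% of all covered genes were. Of the 21 tested, limma called 0 (0.0% of all genes tested), 1 had an unadjusted p below 0.05 (6.89%), and 0 passed with the block (0.0652%). Their median was 47.5 bp, beside 63.5 bp for all genes tested. MICA, a stress ligand for natural killer cells, had 3052 and 2974 bp against 2662 and 2101 bp, and CALR had 6226 and 6393 bp against 5979 and 5499 bp. NFYB, another subunit of NF-Y, had 963 and 1088 bp against 1102 and 1691 bp, and RFXAP, of the RFX complex, had 1364 and 1406 bp against 1627 and 1484 bp.

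The genes whose coverage in the 12 libraries was closest to that of NLRC5, by root mean square difference over the 12 values, were FOXO4 (365.4 bp), MSRB1 (412.2 bp) and TRAF3IP2 (415.2 bp). FOXO4 had a mean H3K27ac coverage of 1912 bp with Corin and 502.5 bp with DMSO. For B2M they were ZNF250 (284.6 bp), PCYOX1 (289.9 bp) and ARFGAP2 (308.5 bp). ZNF250 had a mean H3K27ac coverage of 1771 bp with Corin and 1241 bp with DMSO, where B2M had no such gap. Likeness in covered bp over 12 libraries is a description of these lists.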

How the data were processed

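CUT&RUN libraries of MOLM-13 cells were made with a commercial kit and sequenced as paired reads of 150 bp to at least 5000000 reads, per the labels' protocols. Trim Galore, Bowtie2, Picard and MACS2, with the builds GRCh38 and hg38, are named in the submitters' processing notes, and their versions and settings are not given in the sources used here. The authors deposited 1 peak list per library, 12 in all, whose value column is a whole-number score of at least 50, read here as the authors' peak score and used to rank peaks within a list. Lists were called per library and not pooled, and 7 other libraries were not analysed here. A list shows where a peak passed the authors' threshold and not how much signal lies under it, so a longer list gives more covered bp.

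Base pairs under peaks were summed within 10 kb and 2 kb of the 5′ end of each protein-coding gene in GENCODE release 44 (python 3.11.15, pandas 2.3.3, numpy 2.4.6). Genes with a mean of at least 200 bp were compared between Corin and DMSO per mark with limma 3.58.1 in R 4.3.3 (trend and robust options, two-sided, Benjamini-Hochberg adjustment over all genes tested, threshold 0.05), which was tested on simulated data. A gene counted as higher when both Corin libraries exceeded both DMSO libraries. Peaks of a mark that overlapped by at least 1 bp were merged into regions, and a region was gained when it was in both Corin and in neither DMSO list. Same-numbered libraries deviated together from their group means (correlation over genes 0.285 in H3K27ac, 0.309 in H3K4me2 and 0.228 in H3K4me3). No label states that equal numbers mean a shared culture or day, so with 2 libraries per group this correlation is a hint from the data. The blocked value is printed where it changes a call or a count.

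The members and lists were chosen with earlier results of these data known. All 9 genes are named. Of the 24 further genes, up to 2 higher and 2 lower are named per mark, those with the biggest difference in mean covered bp where the groups do not overlap. The 3 genes most like NLRC5 and B2M have the smallest root mean square difference in bp over 12 libraries, leaving out genes with overlapping windows. Alternatives were the 2 kb window, the gene body, the canonical TSS, lists cut to the length of the shortest list of the mark (matched number), a score of at least 100, log2(bp + 200), no coverage minimum, 50% coverage for a region, the replicate block and leaving out each library. Motifs were searched on both strands, and sequences are from RefSeq and hg38.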

Additional observations from a re-analysis of the deposited data

How the results depend on the processing

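The number of genes with more H3K27ac in both Corin libraries, 4 within 10 kb, was 0 in the 2 kb window (47.7% of covered genes), 1 over the gene body (53.4%), 0 at matched peak number (35.3%) and 0 with the canonical TSS and the 2 kb window together (47.5%), the last chosen after seeing the data. It was 3 with the canonical TSS alone (54.5%). Gained H3K27ac regions, 3 in all, were 0 at matched peak number and 1 with a score of at least 100, and 4 to 6 with 1 library left out, where a lone library stands for its group (6 without the first Corin library). Genome-wide they went from 4798 to 1193, to 3679 and to between 6726 and 15951. In H3K4me2 gained regions were 1 with a score of at least 100 and 0 to 2 with 1 library left out (2 without the second Corin or second DMSO library), and genome-wide they went from 4090 to 3435 and to between 5399 and 9351. Genes higher in both Corin libraries were 4 to 7 in H3K4me2 and 2 to 4 in H3K4me3 with 1 library left out, the highest without the second DMSO library in both, where the share of all covered genes was 66.6% and 49.8%.

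With the replicate block, libraries of the same number paired, limma called 2 genes in H3K27ac instead of 0, HLA-E and NLRC5, and the block changed no other call of the 9 genes. With log2(bp + 200), with no coverage minimum and with each library left out in turn, limma called 0 of the 9 genes in each mark. Over all genes these fits called 0 as well, except 18 genes in H3K27ac and 22 in H3K4me2 with no coverage minimum, and 0 to 3 of the 9 had an unadjusted p below 0.05 in them.

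Several differences changed sign. In H3K27ac at matched peak number HLA-E was at -160.5 bp and TAP1 at -332 bp, and B2M was at 173 bp with a score of at least 100. In H3K4me2 HLA-E was at -89.5 bp in the 2 kb window (also with the canonical TSS, and with a score of at least 100), -248 bp over the gene body and -304.5 bp at matched peak number, where HLA-B was at -74.5 bp. In H3K4me3 TAP2 was at -90 bp in the 2 kb window by either TSS and -70 bp over the gene body, PSMB9 at 117.5 bp in the 2 kb window, B2M at 15 bp over the gene body, and HLA-B at 16.5 bp over the gene body and with the canonical TSS in both windows. The cause was not tested.

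With 1 library left out, the H3K27ac difference ranged from -421 to 354 bp for B2M, 332.5 (without the first Corin library) to 1258.5 bp (without the second) for HLA-E, and 72 (without the first DMSO library) to 865 bp (without the second) for TAP1. Without those same DMSO libraries in turn it was 410 and 1566 bp for TAP2 and 552.5 and 1708.5 bp for PSMB9, the ends of their ranges, and the median over the 9 genes was 72 and 635 bp. That median ranged from 0 (without the first Corin library) to 480 bp (without the second) in H3K4me2 and from -97.5 (without the first DMSO library) to 60.5 bp (without the second Corin library) in H3K4me3. In H3K4me2 it ranged from -405.5 to 712.5 bp for HLA-B, -503.5 to 571.5 bp for HLA-E, -99 to 457 bp for TAP2 and -98.5 to 573.5 bp for PSMB9, and from 100.5 to 267.5 bp for TAP1. In H3K4me3 it ranged from -408 to 41 bp for HLA-C, -199 to 108 bp for B2M, -134.5 to 60.5 bp for TAP1, -97.5 to 152.5 bp for TAP2 and -176 to 100 bp for PSMB9. The NLRC5 difference kept its sign, at 381 (without the second Corin library) to 1919 bp (without the first) in H3K27ac, 745.5 to 1315.5 bp in H3K4me2 and 328 to 347 bp in H3K4me3. Its H3K27ac difference was 23 bp in the 2 kb window, 341.5 bp at matched peak number and 743 bp with a score of at least 100, with overlapping groups each time, and 5919.5 bp over the gene body. Its H3K4me2 difference was 489 bp in the 2 kb window and 1965 bp over the gene body. Peak lists hold no signal below the authors' threshold, read depth is unknown, and 2 libraries per group limit every comparison.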
